A study of Homo sapiens with 18 samples.

Results

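The 43 genes described here encode the machinery that acts on endosomes downstream of the lipid phosphatidylinositol 3-phosphate (PI3P): RAB GTPases and their partners, membrane tethers, the retromer and sorting nexins, and the ESCRT complexes. They were taken by gene symbol from a list of names and not by a threshold on their values. The members and gene lists were, however, chosen with earlier results of these data known. Their shares and medians beside those of all genes are therefore descriptions and not independent tests. All 43 were found among the 37096 named genes of the table. Poly-A RNA was measured in HEK293T, a human embryonic kidney line of wild type genotype that takes up plasmids readily, in 6 groups of 3 libraries each. Cells had been transfected with MethionaseNLS, a methionine-degrading enzyme with a nuclear localisation signal, or with the empty pLEX vector. The groups at 24 h after transfection were methionase cells with Vps34-IN1, vector cells with Vps34-IN1, methionase cells in DMSO and vector cells in DMSO, and the groups at 12 h were methionase cells in DMSO and vector cells in DMSO. Vps34-IN1, an inhibitor of the lipid kinase VPS34 that makes PI3P, had been given at 5 µM for 12 h, and DMSO was its vehicle. No inactive methionase or other foreign protein was among the groups, so a difference between methionase and vector cells cannot be told apart from an effect of expressing any nuclear protein. The labels do not say for how long DMSO was given, nor that the libraries of a group came from separate cultures, so the spread behind each p-value is that between libraries and may be technical.

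As background, PI3P made by VPS34 marks early endosomes, where proteins with FYVE or PX domains bind it together with active RAB5. RAB5 is then exchanged for RAB7 by the MON1 and CCZ1 complex, and the CORVET and HOPS tethers hold membranes together before fusion at the early and the late endosome. Retromer and sorting nexins return receptors from endosomes, and the ESCRT complexes sort ubiquitinated proteins into vesicles that bud into the endosome, with the ATPases VPS4A and VPS4B recycling the ESCRT-III filament.

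Promoters are shown for 5 genes whose RNA moved in different directions below: RAB5A, EEA1 and HGS, higher with Vps34-IN1 in vector cells, VPS4B, lower with methionase and with Vps34-IN1, and its paralogue VPS4A. The 250 bases before the RefSeq start (GRCh38.p14) are given 5′ to 3′ on the gene's strand, with matches to the searched motifs in capitals. RAB5A lies at chr3:19946847-19947096 (+ strand), EEA1 at chr12:92929296-92929545 (− strand), HGS at chr17:81683761-81684010 (+ strand), VPS4B at chr18:63422477-63422726 (− strand) and VPS4A at chr16:69311100-69311349 (+ strand).
RAB5A: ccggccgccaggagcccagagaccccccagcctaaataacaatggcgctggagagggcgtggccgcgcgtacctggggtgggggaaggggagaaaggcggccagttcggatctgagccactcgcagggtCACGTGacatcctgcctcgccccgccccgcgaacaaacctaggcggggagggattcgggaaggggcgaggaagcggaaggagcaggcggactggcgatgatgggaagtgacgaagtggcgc
EEA1: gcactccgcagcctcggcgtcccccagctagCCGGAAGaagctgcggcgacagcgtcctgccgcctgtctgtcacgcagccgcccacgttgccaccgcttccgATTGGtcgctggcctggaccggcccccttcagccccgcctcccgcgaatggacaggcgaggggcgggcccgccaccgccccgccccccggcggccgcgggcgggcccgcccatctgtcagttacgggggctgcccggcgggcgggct
HGS: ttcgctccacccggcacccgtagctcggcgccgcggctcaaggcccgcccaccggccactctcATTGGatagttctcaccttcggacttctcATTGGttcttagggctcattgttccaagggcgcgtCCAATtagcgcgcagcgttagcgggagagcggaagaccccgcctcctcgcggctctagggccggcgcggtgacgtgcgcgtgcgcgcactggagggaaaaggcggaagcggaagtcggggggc
VPS4B: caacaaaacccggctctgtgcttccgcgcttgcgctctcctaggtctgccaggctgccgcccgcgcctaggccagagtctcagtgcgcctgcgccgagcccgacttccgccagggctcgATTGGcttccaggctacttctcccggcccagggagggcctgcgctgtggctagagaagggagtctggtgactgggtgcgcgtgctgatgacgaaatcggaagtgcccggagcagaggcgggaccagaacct
VPS4A: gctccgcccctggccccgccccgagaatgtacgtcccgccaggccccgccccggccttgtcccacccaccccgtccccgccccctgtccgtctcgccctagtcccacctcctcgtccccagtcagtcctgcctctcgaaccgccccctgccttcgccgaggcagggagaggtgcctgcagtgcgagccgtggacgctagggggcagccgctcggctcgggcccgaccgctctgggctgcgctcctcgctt
The capitals in RAB5A mark an E-box, those in EEA1 an ETS motif and then a CCAAT box on the reverse strand, those in HGS 3 CCAAT boxes and those in VPS4B 1 CCAAT box, while VPS4A had no match. The motifs searched on both strands were the E-box CACGTG, AP-1 TGANTCA, CRE TGACGTCA, CCAAT and ETS CCGGAAG, over 250 bases before to 50 after each start. RefSeq windows matched 34 of the 43 genes, with 40 windows. The ETS letters were in 45.0% of these windows against 10.3% of all 35093 windows, and the E-box in 22.5% against 7.26%. CCAAT was in 32.5% against 34.6%, AP-1 in 5.0% against 7.71% and CRE in 0.0% against 1.85%. The 35093 windows were not limited to genes with reads in these cells. Shares over the windows of such genes were not computed, so these differences cannot be assigned to the 43 genes in particular. A match is a description of the letters and not evidence of binding.

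The authors deposited variance-stabilised log2 values, from which the read counts were recovered, and normalised reads below are counts divided by the size factor of the library. Log2 differences and their standard errors (SE) are on the deposited scale, where a change in a gene of low read number appears smaller than it is. Calls were made in limma at an adjusted p under 0.05 (Benjamini-Hochberg) over 17755 tested genes, among them all 43 members. Libraries held between 18278586 and 20825232 reads in genes. The 6 markers of this line, PAX2, NEFM, NEFL, VIM, KRT8 and KRT18, had reads in every library. Of 7 markers of other cell types in the table, CD3E, CDH5, PECAM1, APOA1 and ALB stayed at 20.3 normalised reads or fewer in every library, while COL1A1 had between 403 and 672 and COL3A1 between 24.1 and 44.7. The share of reads from the 2 mitochondrial rRNA genes was 2.18% ± 0.288 in methionase cells with Vps34-IN1, 1.2% ± 0.193 in vector cells with Vps34-IN1, 1.49% ± 0.536 in methionase cells in DMSO and 0.548% ± 0.0956 in vector cells in DMSO at 24 h (SD, n = 3 each). At 12 h it was 0.355% ± 0.0295 in methionase cells and 0.24% ± 0.0453 in vector cells. In bulk RNA, fewer cells of a kind and less RNA per cell cannot be told apart. The mitochondrial rRNA share moved with the groups of every comparison below, and its part in the results was not tested.

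At 24 h in DMSO, methionase lowered the RNA of 21 of the 43 genes and raised that of 3. The largest decreases were in VPS18, VPS4B and CHMP6, whose mean reads were 0.361, 0.418 and 0.485 times those of vector cells. Over all genes tested, 39.2% were called in this comparison, 18.1% higher and 21.1% lower, against 55.8% of the 43. The share over all genes depends on the filter. With a stricter filter, a mean at least 1 above the lowest value, it was 44.5% of 14322 genes. Of the 43, 26 were then called, 4 higher and 22 lower. The median log2 difference was -0.15 over the 43 and 0.01 over all genes tested. At 12 h, 2 genes were called, both lower (VPS36 and VPS4B), against 2.17% of all genes tested (0.681% higher and 1.49% lower). No member was called higher at 12 h in limma, also not with voom on the recovered counts. At an unadjusted p under 0.05 in limma, 18 members were lower and 0 higher, and 8 and 0 with quantile normalization. The share of all genes tested at that unadjusted threshold was not computed. Both calls at 12 h depended on single libraries. The count was 0 without vector replicate 2, vector replicate 3, methionase replicate 1 or methionase replicate 2. It was 1 without methionase replicate 3 and 3 without vector replicate 1. In the same order, 0.552%, 0.349%, 0.518%, 0.101%, 0.738% and 1.34% of all genes tested were called, so calls fell over all genes as well.

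Vps34-IN1 moved the genes in both directions in vector cells, with 11 higher and 7 lower, and few of them in methionase cells, with 2 higher and 2 lower. EEA1 and RAB5A, the early endosome tether and its GTPase, were highest with the drug in vector cells, at 1.59 and 1.45 times the mean reads in DMSO. VPS18, VPS4B and CHMP6 had 0.477, 0.51 and 0.509 times the reads of DMSO. Over all genes tested, 40.1% were called in vector cells, 20.2% higher and 19.9% lower, against 41.9% of the 43. With the stricter filter 46.9% of all genes tested and 19 of the 43 were called in vector cells. With quantile normalization the split of the members was 9 higher and 11 lower, and with equal library medians 14 higher and 7 lower. Over all genes tested, 3299 were higher and 3500 lower with quantile normalization, and 4544 higher and 2831 lower with equal library medians. In methionase cells 7.93% of all genes tested were called, 2.95% higher and 4.98% lower, against 9.3% of the 43. The 4 calls in methionase cells were HGS and SNF8, higher, and RAB5B and VPS18, lower. Without methionase DMSO replicate 3, 2 calls were left, and 4.84% of all genes tested were called. A separate fit of only these 2 groups with limma called 0 members, with 6 at an unadjusted p under 0.05. That fit called 1.67% of all genes tested. With voom over all groups, 4 members and 7.2% of all genes tested were called. The medians were 0.01 over the 43 in vector cells and 0.03 in methionase cells, and 0.00 over all genes tested in both.

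Under Vps34-IN1, methionase lowered 22 genes and raised 1, SNF8, against 39.5% of all genes tested called (17.3% higher and 22.2% lower) and 53.5% of the 43. The stricter filter gave calls for 45.3% of all genes tested and for 25 of the 43, 2 higher and 23 lower. With quantile normalization 13 were lower and 4 higher, against 3255 lower and 2984 higher over all genes tested. The calls of RAB11A, RAB4A, ZFYVE26, VPS11, VPS33A, VPS26A, VPS36, VPS4A and PDCD6IP were then lost (adjusted p from 0.0735 to 0.593). A total of 16 members were lower with methionase both in DMSO and under the drug, 76.2% of the 21 lower in DMSO and 72.7% of the 22 lower under the drug. Over all genes tested, 1846 were lower in both, 49.3% of the 3745 lower in DMSO and 46.9% of the 3937 lower under the drug, and the difference between these shares was not tested. A total of 12 genes had a methionase difference under the drug that differed from that in DMSO, tested as an interaction, 6 positive and 6 negative, against 21.8% of all genes tested (9.92% positive and 11.9% negative). With quantile normalization this split was 9 positive and 4 negative, against 1848 positive and 1800 negative over all genes tested. The comparisons at 24 h share groups, so that methionase in DMSO and Vps34-IN1 in vector cells are both set against the same 3 vector libraries, as is the interaction.

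**Figure D1:**
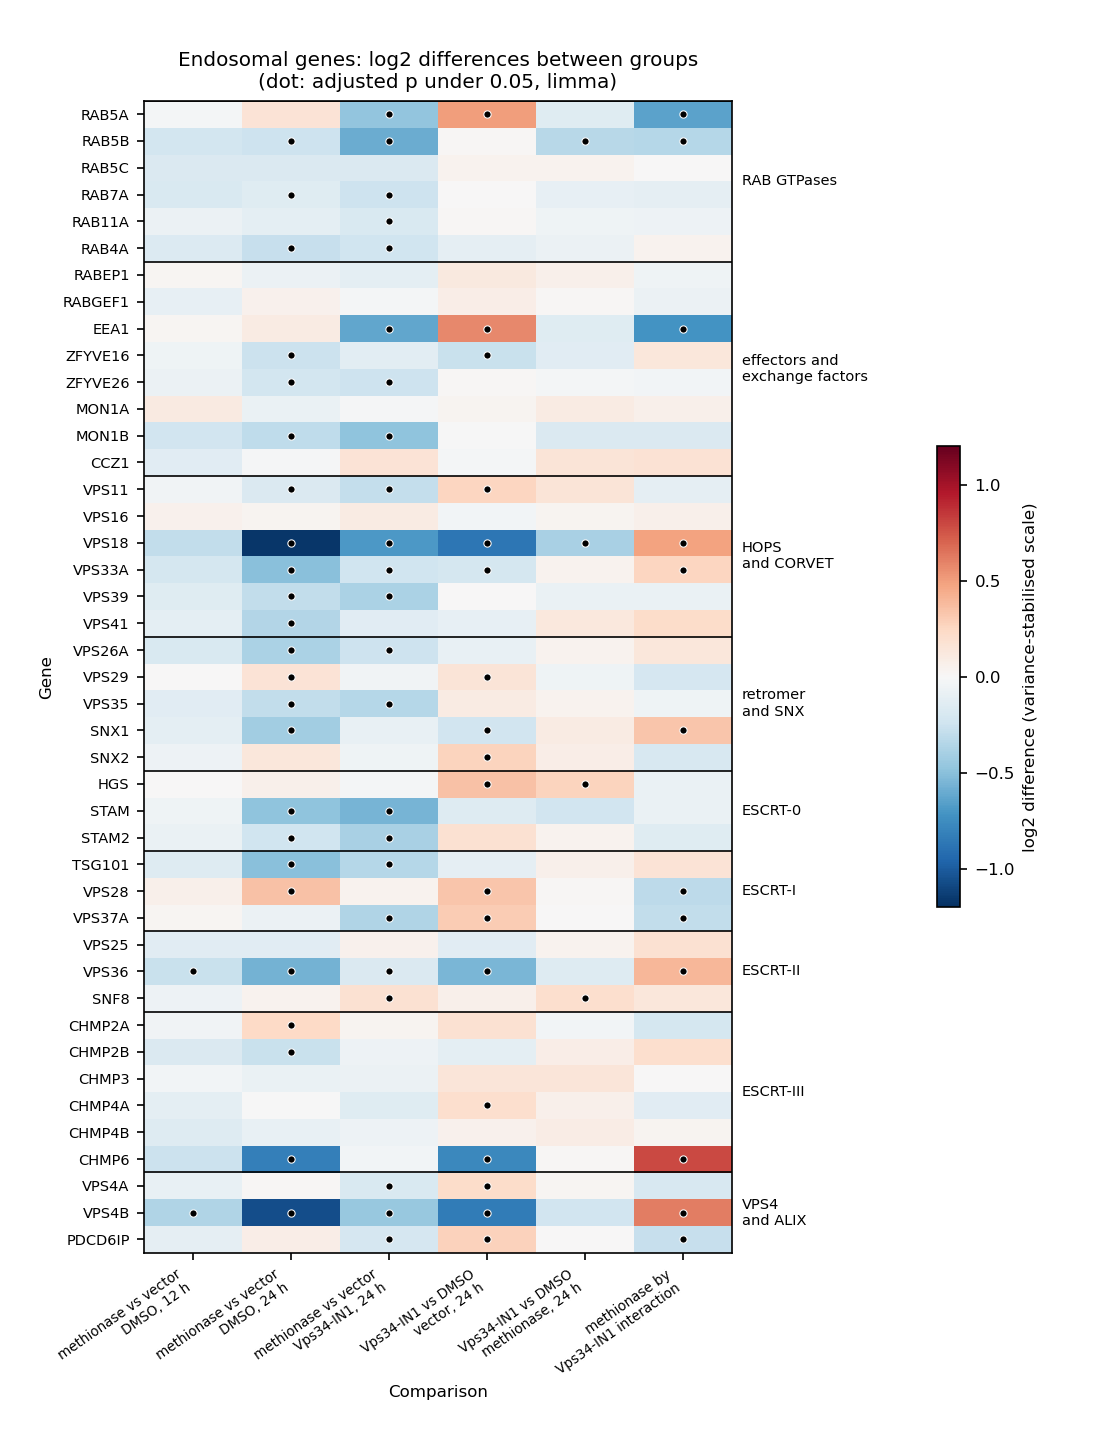
Log2 differences (colour, variance-stabilised scale) of the 43 genes (rows, by role) in 6 comparisons (columns); a dot marks an adjusted p under 0.05 in limma. VPS18, VPS4B and CHMP6 have the darkest blue cells for methionase in DMSO and for Vps34-IN1 in vector cells, and RAB5A and EEA1 the darkest red for Vps34-IN1 in vector cells.

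Of the 6 RAB GTPases, 3 fell with methionase in DMSO, 5 fell with methionase under the drug, and RAB5A rose with Vps34-IN1 in vector cells. Over all genes tested, 21.1% were lower, 22.2% lower and 20.2% higher in these comparisons. No class of members was tested against such shares. RAB5A, RAB5B and RAB5C act on early endosomes. RAB5A had 1105, 1164 and 1391 normalised reads in methionase cells with Vps34-IN1, 1755, 1665 and 1749 in vector cells with Vps34-IN1, 1307, 1331 and 1410 in methionase cells in DMSO and 1139, 1224 and 1214 in vector cells in DMSO at 24 h. The 3 vector libraries with the drug stood above all others, and methionase replicate 3 was the highest of its group. The log2 difference of RAB5A with Vps34-IN1 was 0.50 ± 0.07 (SE, adjusted p = 2.41e-06) in vector cells and -0.14 ± 0.07 in methionase cells (adjusted p = 0.198), with an interaction of -0.64 ± 0.09 (adjusted p = 3.6e-05). With methionase it was -0.48 ± 0.07 under the drug and 0.17 ± 0.07 in DMSO, where the adjusted p of 0.05003 missed the threshold.

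RAB5B had 1566, 1666 and 1465 reads in methionase cells with Vps34-IN1, 2462, 2424 and 2332 in vector cells with Vps34-IN1, 1813, 2098 and 2075 in methionase cells in DMSO and 2431, 2254 and 2482 in vector cells in DMSO. The vector libraries overlapped between drug and DMSO, and methionase cells with the drug were lowest. RAB5B fell with methionase by 0.59 ± 0.06 under the drug and by 0.25 ± 0.06 in DMSO on the log2 scale, and the difference between these had an adjusted p of 0.00623. It fell by 0.33 ± 0.06 with Vps34-IN1 in methionase cells (adjusted p = 0.00144; 0.0708 in a fit of these 2 groups alone) and had a difference of 0.01 ± 0.06 in vector cells. RAB5C passed in no comparison, with log2 differences from -0.18 to 0.04.

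RAB7A, the GTPase of late endosomes, had 4245, 4522 and 3957 reads in methionase cells with Vps34-IN1, 5196, 4993 and 5000 in vector cells with Vps34-IN1, 4498, 4687 and 4414 in methionase cells in DMSO and 5067, 5006 and 5016 in vector cells in DMSO at 24 h. Methionase cells were below vector cells in both settings without overlap. RAB7A fell with methionase by 0.25 ± 0.06 under the drug and by 0.15 ± 0.06 in DMSO, where the adjusted p of 0.048 was above 0.05 without any 1 of 5 of the 6 libraries, up to 0.123, and with equal library medians (0.161), no filter, no variance trend or a fit of only these groups. The drug differences of RAB7A were 0.01 ± 0.06 in vector cells and -0.10 ± 0.06 in methionase cells, neither called. RAB4A, which acts in fast recycling to the plasma membrane, had 1375, 1277 and 1401 reads in methionase cells in DMSO, against 1671, 1719 and 1587 in vector cells in DMSO. It fell by 0.28 ± 0.07 in DMSO and by 0.24 ± 0.07 under the drug, and 21.3% of its exonic bases overlap another gene on the same strand. RAB11A of the recycling endosome was called with methionase under the drug (-0.18 ± 0.06), and no longer without vector replicate 1 (adjusted p = 0.172) or methionase replicate 1 (adjusted p = 0.0841) of the Vps34-IN1 groups, with equal library medians (0.0583) or with only these groups (0.0996). Of the exonic bases of RAB5C, 28.9% overlap another gene on the same strand.

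Of the 8 effectors and exchange factors, 3 fell with methionase in DMSO, and with Vps34-IN1 in vector cells 1 rose and 1 fell. Over all genes tested, 21.1% were lower with methionase, and 20.2% were higher and 19.9% lower with the drug. EEA1, which binds both PI3P and RAB5 and tethers early endosomes, had 347, 304 and 460 reads in methionase cells with Vps34-IN1, 617, 630 and 573 in vector cells with Vps34-IN1, 418, 435 and 383 in methionase cells in DMSO and 375, 389 and 378 in vector cells in DMSO. As for RAB5A, the 3 vector libraries with the drug stood above all others at 24 h, and replicate 3 was the highest of the methionase cells with the drug. EEA1 rose with Vps34-IN1 by 0.58 ± 0.09 in vector cells (adjusted p = 2.28e-05), its difference in methionase cells was -0.14 ± 0.09 (adjusted p = 0.37), and the interaction was -0.72 ± 0.13 (adjusted p = 0.00031). With methionase it fell by 0.62 ± 0.09 under the drug and had a difference of 0.09 ± 0.09 in DMSO. Of its exonic bases, 18.4% overlap PLEKHG7 on the other strand, and the strand setting of the counting is not given in the sources used here.

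The other genes of this class moved less. ZFYVE16 (endofin, a FYVE protein of early endosomes) had 666, 660 and 625 reads in vector cells with Vps34-IN1, against 755, 791 and 858 in vector cells in DMSO. It fell by 0.27 ± 0.08 with the drug in vector cells and by 0.26 ± 0.08 with methionase in DMSO. Without vector DMSO replicate 3 neither was called (adjusted p = 0.0582 and 0.0744), and the methionase call was lost without methionase DMSO replicate 1 (adjusted p = 0.0698) or with quantile normalization (adjusted p = 0.068). ZFYVE26, another FYVE protein, fell with methionase by 0.22 ± 0.08 in DMSO and by 0.25 ± 0.08 under the drug. Its call in DMSO was lost without vector replicate 2 (adjusted p = 0.11), methionase replicate 1 (0.0555) or methionase replicate 3 (0.0987), and with quantile normalization (0.12) or equal library medians (0.0615). MON1B, a subunit of the RAB7 exchange factor, had 803, 770 and 804 reads in methionase cells in DMSO, against 1056, 992 and 952 in vector cells in DMSO, and fell by 0.31 ± 0.06 there and by 0.48 ± 0.06 under the drug. RABEP1 (rabaptin, a RAB5 effector), RABGEF1 (its partner and the RAB5 exchange factor), MON1A and CCZ1 passed in no comparison of methionase or of the drug. CCZ1 has a near-identical copy, CCZ1B, that is counted apart. For RABGEF1, 69.6% of the exonic bases overlap another gene on the same strand, so the values of both CCZ1 and RABGEF1 are uncertain.

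**Figure D2:**
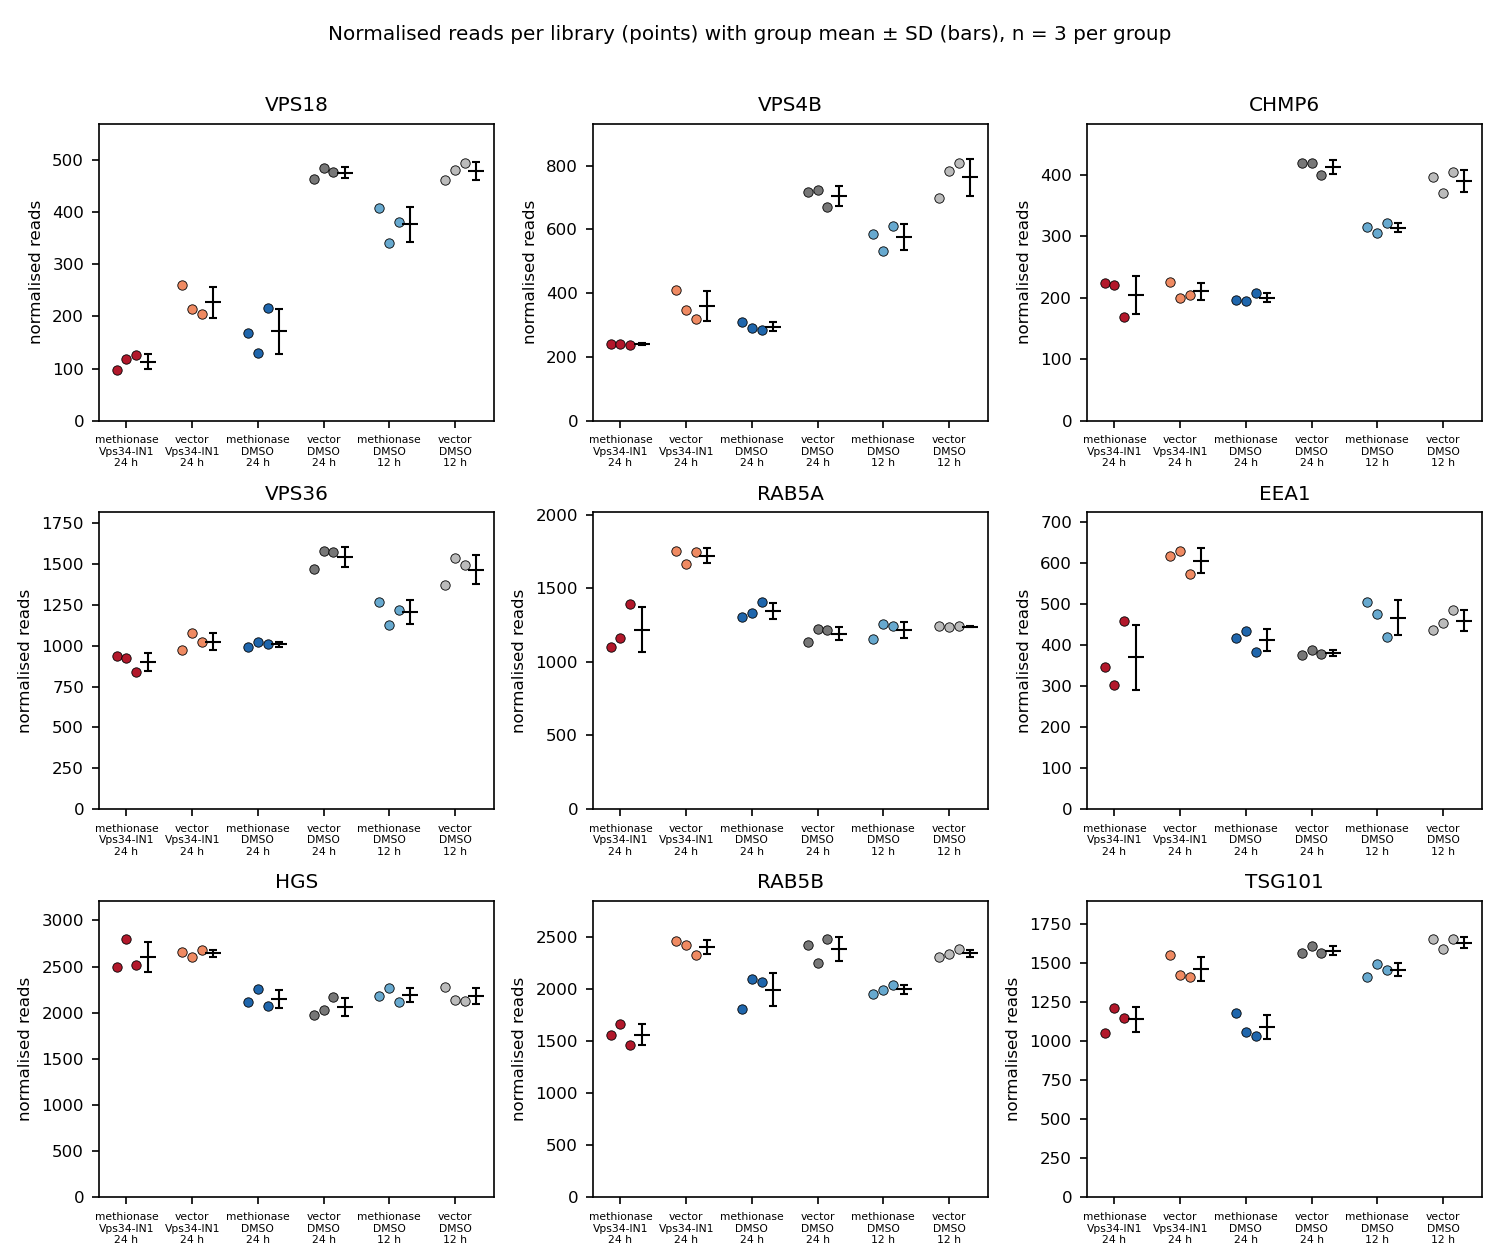
Normalised reads of 9 genes in each of the 18 libraries (points, y axis from 0) by group (x axis), with bars for the group mean ± SD (n = 3). For VPS18, VPS4B, CHMP6 and VPS36 the vector cells in DMSO lie above every other group at 24 h, while for RAB5A and EEA1 the vector cells with Vps34-IN1 do.

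Of the 6 HOPS and CORVET subunits, 5 fell with methionase in DMSO, against 21.1% of all genes tested, and VPS16 did not pass (0.03 ± 0.07). VPS18, a core subunit shared by both tethers, lies at chr15:40894450-40903975 (+ strand). It had 97.2, 118 and 126 reads in methionase cells with Vps34-IN1, 261, 215 and 205 in vector cells with Vps34-IN1, 169, 130 and 216 in methionase cells in DMSO and 464, 485 and 477 in vector cells in DMSO at 24 h. Methionase cells with the drug were the lowest and vector cells in DMSO the highest, each without overlap, and the ranges of the other two groups overlapped. At 12 h it had 409, 341 and 381 reads in methionase cells and 461, 482 and 496 in vector cells, a log2 difference of -0.30 ± 0.10 that was not called (adjusted p = 0.12). VPS18 fell with methionase by 1.17 ± 0.10 in DMSO (adjusted p = 4.62e-09) and by 0.69 ± 0.10 under the drug (adjusted p = 9.21e-06). It fell with Vps34-IN1 by 0.87 ± 0.10 in vector cells (adjusted p = 3.52e-07) and by 0.39 ± 0.10 in methionase cells (adjusted p = 0.0182). In cells with both it had 0.239 times the reads of vector cells in DMSO, a log2 difference of -1.56 ± 0.10. The interaction of 0.48 ± 0.14 (adjusted p = 0.0171) was lost without methionase DMSO replicate 2 (adjusted p = 0.0605) or vector Vps34-IN1 replicate 3 (0.05), and with quantile normalization (0.0509) or voom (0.0874). VPS18 lost the drug call in methionase cells without methionase DMSO replicate 3 (adjusted p = 0.128) or methionase Vps34-IN1 replicate 1 (0.0728), and in a fit of these 2 groups alone (0.14).

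VPS33A, the subunit that binds SNARE proteins, fell with methionase by 0.50 ± 0.06 in DMSO and by 0.24 ± 0.06 under the drug, and with Vps34-IN1 in vector cells by 0.21 ± 0.06. Its interaction of 0.26 ± 0.08 was lost without vector DMSO replicate 2, methionase DMSO replicate 2, vector Vps34-IN1 replicate 2 or methionase Vps34-IN1 replicate 1 (adjusted p from 0.0549 to 0.0751). Of the exonic bases of VPS33A 29.8%, and of those of VPS16 20.3%, overlap another gene on the same strand. VPS39 and VPS41, the subunits that give HOPS its contact with RAB7, fell with methionase in DMSO by 0.29 ± 0.06 and 0.35 ± 0.06. Under the drug VPS39 fell by 0.38 ± 0.06, and VPS41 had -0.13 ± 0.06 (not called). VPS11, another core subunit, had 1149, 1205 and 1348 reads in vector cells with Vps34-IN1, against 1029, 989 and 1026 in vector cells in DMSO, and rose by 0.26 ± 0.07. With methionase VPS11 fell by 0.28 ± 0.07 under the drug and by 0.17 ± 0.07 in DMSO, where the call was lost without any 1 of 5 of the 6 libraries (adjusted p up to 0.23) and in 5 other settings, among them quantile normalization (0.19) and equal library medians (0.128).

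In retromer and the sorting nexins, VPS35 and VPS26A fell with methionase while VPS29 did not. VPS35, the retromer scaffold, had 2730, 2785 and 2935 reads in methionase cells with Vps34-IN1, 3663, 3506 and 3620 in vector cells with Vps34-IN1, 2794, 2818 and 2577 in methionase cells in DMSO and 3325, 3473 and 3294 in vector cells in DMSO. Methionase cells were below vector cells without overlap in both settings. VPS35 fell by 0.34 ± 0.05 under the drug and by 0.29 ± 0.05 in DMSO, and its drug differences were 0.09 ± 0.05 in vector cells and 0.04 ± 0.05 in methionase cells, neither called. VPS26A fell by 0.38 ± 0.08 with methionase in DMSO. Under the drug it had -0.25 ± 0.08, called, and not without vector replicate 1, methionase replicate 1 or methionase replicate 2 (adjusted p from 0.0595 to 0.123). VPS29 had 1432, 1460 and 1341 reads in methionase cells in DMSO, against 1211, 1302 and 1234 in vector cells in DMSO, a called log2 difference of 0.17 ± 0.06 that was lost without any 1 of 4 of the 6 libraries (adjusted p up to 0.111), with no filter (0.0507) or in a fit of only these groups (0.0503). With Vps34-IN1 in vector cells VPS29 had 0.15 ± 0.06, called, and lost without any 1 of 4 of the 6 libraries (adjusted p up to 0.17), with quantile normalization (0.211), no filter (0.0746) or no variance trend (0.0635).

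The paralogues SNX1 and SNX2, which form a PI3P-binding coat with BAR domains, were called in opposite directions with Vps34-IN1 in vector cells. SNX1 had 1293, 1299 and 1320 reads in methionase cells with Vps34-IN1, 1393, 1410 and 1381 in vector cells with Vps34-IN1, 1095, 1242 and 1297 in methionase cells in DMSO and 1628, 1631 and 1681 in vector cells in DMSO. SNX1 fell by 0.42 ± 0.06 with methionase in DMSO and by 0.23 ± 0.06 with the drug in vector cells. Under the drug its methionase difference was -0.09 ± 0.06 (not called), and the interaction was 0.33 ± 0.08 (adjusted p = 0.00593). SNX2 had 2831, 2643 and 2745 reads in vector cells with Vps34-IN1, against 2300, 2363 and 2130 in vector cells in DMSO, and rose by 0.27 ± 0.07, with a methionase difference in DMSO of 0.14 ± 0.07 that was not called.

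In ESCRT-0, which binds ubiquitinated cargo, HGS moved with the drug and its partners STAM and STAM2 with methionase. HGS (HRS), the FYVE subunit that brings ESCRT-0 to PI3P, had 2497, 2796 and 2518 reads in methionase cells with Vps34-IN1, 2655, 2601 and 2676 in vector cells with Vps34-IN1, 2115, 2261 and 2073 in methionase cells in DMSO and 1976, 2035 and 2166 in vector cells in DMSO. All 6 libraries with the drug were above all 6 in DMSO. HGS rose with Vps34-IN1 by 0.35 ± 0.06 in vector cells (adjusted p = 4.55e-05) and by 0.27 ± 0.06 in methionase cells (adjusted p = 0.00596; 0.134 in a fit of these 2 groups alone), and was the only member called higher in both. The interaction was -0.08 ± 0.08 (adjusted p = 0.519), and the methionase differences were 0.06 ± 0.06 in DMSO and -0.02 ± 0.06 under the drug, none called. Of the exonic bases of HGS, 20.6% overlap a gene on the other strand. STAM had 462, 537 and 530 reads in methionase cells in DMSO, against 737, 728 and 765 in vector cells in DMSO, and fell by 0.48 ± 0.09 there and by 0.56 ± 0.09 under the drug. STAM2 fell by 0.24 ± 0.08 and 0.39 ± 0.08 in the same settings, and its call in DMSO was lost without vector replicate 2 (adjusted p = 0.0829) or methionase replicate 3 (0.0798).

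In ESCRT-I, TSG101 fell and VPS28 rose with methionase in DMSO, and VPS28 and VPS37A rose with the drug in vector cells. TSG101, the subunit that binds ubiquitin and ALIX, had 1053, 1214 and 1152 reads in methionase cells with Vps34-IN1, 1552, 1425 and 1411 in vector cells with Vps34-IN1, 1182, 1062 and 1034 in methionase cells in DMSO and 1563, 1613 and 1565 in vector cells in DMSO. It fell with methionase by 0.50 ± 0.06 in DMSO (adjusted p = 8.7e-07) and by 0.34 ± 0.06 under the drug, and its drug differences were -0.11 ± 0.06 in vector cells and 0.06 ± 0.06 in methionase cells, neither called. VPS28, the core subunit that contacts ESCRT-II, had 1119, 1155 and 1002 reads in methionase cells with Vps34-IN1, 994, 1078 and 1105 in vector cells with Vps34-IN1, 1141, 1011 and 1076 in methionase cells in DMSO and 868, 825 and 776 in vector cells in DMSO. The vector cells in DMSO were below every other library at 24 h. VPS28 rose by 0.36 ± 0.07 with methionase in DMSO and by 0.33 ± 0.07 with the drug in vector cells, and its interaction of -0.32 ± 0.09 (adjusted p = 0.0168) was lost without vector DMSO replicate 3 (adjusted p = 0.0522). VPS37A, another core subunit, rose by 0.31 ± 0.07 with Vps34-IN1 in vector cells and fell by 0.37 ± 0.07 with methionase under the drug. The VPS37A interaction of -0.30 ± 0.10 was lost without any 1 of 8 of the 12 libraries (adjusted p up to 0.0886), with no filter (0.0543), quantile normalization (0.054) or only these groups (0.0646).

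In ESCRT-II, VPS36 fell and its partners VPS25 and SNF8 did not. VPS36, whose GLUE domain binds PI3P and ubiquitin, had 937, 923 and 837 reads in methionase cells with Vps34-IN1, 973, 1077 and 1023 in vector cells with Vps34-IN1, 993, 1023 and 1013 in methionase cells in DMSO and 1470, 1580 and 1572 in vector cells in DMSO. Vector cells in DMSO stood above all other libraries at 24 h. VPS36 fell by 0.57 ± 0.06 with methionase in DMSO (adjusted p = 1.85e-07) and by 0.55 ± 0.06 with Vps34-IN1 in vector cells (adjusted p = 2.83e-07), with an interaction of 0.40 ± 0.09 (adjusted p = 0.00244). Under the drug its methionase difference was -0.17 ± 0.06, a call that was lost without vector replicate 2, vector replicate 3 or methionase replicate 3 (adjusted p from 0.0664 to 0.134), and with quantile normalization (-0.05, adjusted p = 0.593), equal library medians (0.078), no filter (0.0547) or only these groups (0.112). At 12 h VPS36 had 1270, 1128 and 1220 reads in methionase cells and 1369, 1534 and 1495 in vector cells, a called difference of -0.26 ± 0.06 that was lost without any 1 of 5 of the 6 libraries (adjusted p up to 0.171) and with quantile normalization (0.132), no filter (0.0554) or no variance trend (0.054).

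SNF8 had 2106, 2293 and 2291 reads in methionase cells with Vps34-IN1, against 2118, 1780 and 1906 in methionase cells in DMSO, and these ranges overlapped. Its drug difference there of 0.20 ± 0.06 was called, and lost without any 1 of 4 of the 6 libraries (adjusted p up to 0.164), with no filter (0.0714), no variance trend (0.0697) or only these groups (0.298). The methionase call of SNF8 under the drug, 0.19 ± 0.06, was lost without vector replicate 2 (adjusted p = 0.0578) or with only these groups (0.0659). VPS25 had -0.13 ± 0.06 with methionase and -0.14 ± 0.06 with the drug in vector cells, neither called.

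In ESCRT-III, which forms the membrane-cutting filament, 1 of 6 genes rose and 2 fell with methionase in DMSO. Over all genes tested, 18.1% rose and 21.1% fell. With methionase under the drug the 6 genes had log2 differences between -0.15 (CHMP4A) and 0.03 (CHMP2A). They did not pass the threshold, against 39.5% of all genes tested called. CHMP6, which starts the filament at ESCRT-II, lies at chr17:80991841-81000133 (+ strand). It had 224, 221 and 169 reads in methionase cells with Vps34-IN1, 226, 200 and 204 in vector cells with Vps34-IN1, 197, 196 and 208 in methionase cells in DMSO and 419, 420 and 400 in vector cells in DMSO. The first 3 of these groups overlapped each other, and all 9 of their libraries lay below the vector cells in DMSO. CHMP6 fell by 0.82 ± 0.08 with methionase in DMSO (adjusted p = 1.56e-08) and by 0.77 ± 0.08 with Vps34-IN1 in vector cells (adjusted p = 3.86e-08). Its methionase difference under the drug was -0.03 ± 0.08 and its drug difference in methionase cells 0.02 ± 0.08, and the interaction of 0.79 ± 0.11 (adjusted p = 1.62e-05) was the largest of the 43. Of its exonic bases, 20.3% overlap a gene on the other strand.

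CHMP2A, which joins the end of the filament and recruits VPS4, had 1369, 1399 and 1448 reads in methionase cells in DMSO, against 1155, 1235 and 1134 in vector cells in DMSO, and rose by 0.24 ± 0.08. CHMP2B, its paralogue, fell by 0.26 ± 0.06 in the same comparison. CHMP4B, which makes most of the filament, had 1486, 1722 and 1545 reads in methionase cells with Vps34-IN1, 1668, 1550 and 1760 in vector cells with Vps34-IN1, 1537, 1528 and 1400 in methionase cells in DMSO and 1554, 1690 and 1538 in vector cells in DMSO. These groups overlapped, and CHMP4B was called in no comparison of methionase or drug, with log2 differences from -0.15 to 0.08. CHMP4A had 585, 632 and 648 reads in vector cells with Vps34-IN1, against 519, 561 and 510 in vector cells in DMSO. The called difference of 0.20 ± 0.07 was lost without any 1 of 4 of the 6 libraries (adjusted p up to 0.0925). Of the exonic bases of CHMP4A, 95.5% overlap readthrough genes on the same strand. CHMP3 passed in no comparison, and 24% of its exonic bases overlap the readthrough gene RNF103-CHMP3 on the same strand.

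The paralogous ATPases VPS4A and VPS4B, which take ESCRT-III apart, were called in opposite directions with Vps34-IN1 in vector cells. VPS4B, at chr18:63389190-63422476 (− strand), had 242, 241 and 237 reads in methionase cells with Vps34-IN1, 411, 348 and 318 in vector cells with Vps34-IN1, 310, 289 and 283 in methionase cells in DMSO and 718, 725 and 669 in vector cells in DMSO. As for CHMP6, vector cells in DMSO stood above all other libraries at 24 h, but methionase cells with the drug were the lowest. VPS4B fell by 1.07 ± 0.08 with methionase in DMSO (adjusted p = 3.91e-10) and by 0.46 ± 0.08 under the drug (adjusted p = 4.98e-05). It fell by 0.84 ± 0.08 with Vps34-IN1 in vector cells (adjusted p = 9.48e-09), and in methionase cells its drug difference was -0.23 ± 0.08 (adjusted p = 0.064). The interaction was 0.61 ± 0.11 (adjusted p = 0.000259), and in cells with both VPS4B had 0.34 times the reads of vector cells in DMSO.

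VPS4B was already lower at 12 h, with 587, 533 and 611 reads in methionase cells and 698, 782 and 810 in vector cells, a difference of -0.36 ± 0.08 (adjusted p = 0.0155). That call was lost without vector replicate 2, vector replicate 3, methionase replicate 1 or methionase replicate 2 (adjusted p from 0.0544 to 0.118). VPS4A had 4060, 4361 and 3839 reads in methionase cells with Vps34-IN1, 4487, 4611 and 4821 in vector cells with Vps34-IN1, 4117, 3841 and 4056 in methionase cells in DMSO and 3774, 4045 and 4107 in vector cells in DMSO. It rose by 0.22 ± 0.06 with the drug in vector cells and had 0.01 ± 0.06 with methionase in DMSO, and the call under the drug (-0.18 ± 0.06) was lost without replicate 3 of either Vps34-IN1 group (adjusted p = 0.0707 without the vector and 0.0696 without the methionase library). Quantile normalization ended both VPS4A calls (adjusted p = 0.123 for the drug and 0.336 for methionase), and a fit of only these groups the methionase one (0.077). Of the exonic bases of VPS4A, 29% overlap another gene on the same strand. PDCD6IP (ALIX), which binds both TSG101 and CHMP4, had 4400, 4347 and 4473 reads in methionase cells with Vps34-IN1, 4902, 5142 and 5166 in vector cells with Vps34-IN1, 4516, 4452 and 4252 in methionase cells in DMSO and 4128, 4212 and 4166 in vector cells in DMSO. Vector cells with the drug were the highest without overlap. PDCD6IP rose by 0.28 ± 0.05 with the drug in vector cells and fell by 0.20 ± 0.05 with methionase under the drug, with an interaction of -0.28 ± 0.07 (adjusted p = 0.0077). With quantile normalization the methionase difference of PDCD6IP under the drug was -0.09 (adjusted p = 0.18) and its interaction -0.17 (adjusted p = 0.0932), both no longer called.

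**Figure D3:**
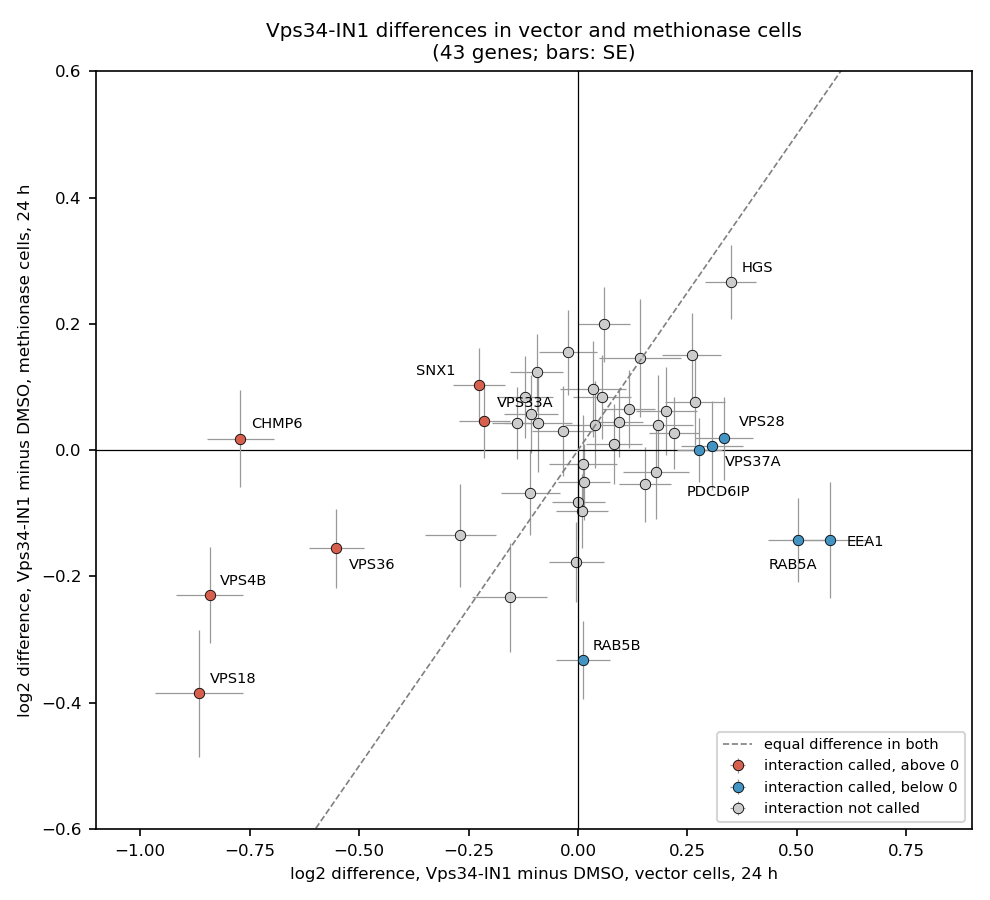
Log2 difference with Vps34-IN1 in methionase cells (y axis) against that in vector cells (x axis) for the 43 genes, with SE bars; red and blue mark a called positive and negative interaction, and the dashed line marks equal differences. HGS lies near the line at 0.35 and 0.27, CHMP6 at -0.77 and 0.02, and EEA1 at 0.58 and -0.14.

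Of the 12 genes with a called interaction, the positive ones were VPS18, VPS33A, SNX1, VPS36, CHMP6 and VPS4B, and the negative ones RAB5A, RAB5B, EEA1, VPS28, VPS37A and PDCD6IP. In cells with both methionase and the drug, 5 members were higher and 21 lower than in vector cells in DMSO, against 48.1% of all genes tested called (22.3% higher and 25.8% lower). With equal library medians or quantile normalization 8 were higher and 17 lower. Over all genes tested, 5667 were higher and 3498 lower with equal library medians, and 4053 higher and 4506 lower with quantile normalization. EEA1 and RAB5A had 0.973 and 1.02 times the reads of vector cells in DMSO in this comparison, and neither was called (log2 differences of -0.05 ± 0.09 and 0.03 ± 0.07). HGS rose by 0.33 ± 0.06 and VPS28 by 0.37 ± 0.07.

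Among the 7 members that bind PI3P through a FYVE, PX or GLUE domain (EEA1, ZFYVE16, ZFYVE26, HGS, SNX1, SNX2 and VPS36), Vps34-IN1 in vector cells raised EEA1, HGS and SNX2 and lowered ZFYVE16, SNX1 and VPS36. Of the 36 other members, 8 were higher and 4 lower. Over all genes tested, 20.2% were higher and 19.9% lower. Whether the 7 differ from the 36 or from all genes was not tested. The median log2 difference was 0.01 over the 7 and 0.02 over the 36. With methionase in DMSO, 4 of the 7 fell (ZFYVE16, ZFYVE26, SNX1 and VPS36) and EEA1, HGS and SNX2 were not called, while 17 of the 36 fell and 3 rose. Over all genes tested, 21.1% fell and 18.1% rose. The medians were -0.22 over the 7 and -0.14 over the 36.

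The methionase difference was larger at 24 h than at 12 h for 8 lower genes and 1 higher gene, tested as an interaction with time in DMSO, against 11.7% of all genes tested (5.33% positive and 6.33% negative). With equal library medians 5 were negative and 3 positive, against 722 negative and 1431 positive over all genes tested. VPS18 had an interaction of -0.88 ± 0.14, VPS4B one of -0.71 ± 0.11, CHMP6 one of -0.57 ± 0.11 and TSG101 one of -0.35 ± 0.09, and these 4 were called under every setting tried. STAM (-0.43 ± 0.12), SNX1 (-0.30 ± 0.08), VPS36 (-0.30 ± 0.09), VPS33A (-0.29 ± 0.08) and VPS28 (0.30 ± 0.09) each lost their call without 1 of several libraries: 3 of 12 for STAM and SNX1, 6 for VPS36, 5 for VPS33A and 9 for VPS28. Equal library medians also ended the calls of VPS33A (adjusted p = 0.0644), SNX1 (0.0522) and VPS36 (0.0719), and no filter those of STAM (0.0521), VPS36 (0.0521) and VPS28 (0.0722). The count was 5 without vector 12 h replicate 1 or methionase 24 h replicate 1. Of all genes tested, 8.37% and 10.2% were then called.

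In vector cells in DMSO, 11 members were lower at 24 h than at 12 h and 0 higher in limma, against 11.5% of all genes tested (4.61% higher and 6.88% lower). At an unadjusted p under 0.05 in limma, 17 were lower and 1 higher, and with quantile normalization 14 were lower and 4 higher. The share of all genes tested at that unadjusted threshold was not computed. Calls with voom were also 11 lower and 0 higher, against 1378 lower and 904 higher over all genes tested. The 11 called in the reported fit were RAB7A, RABEP1, ZFYVE16, ZFYVE26, VPS33A, VPS41, VPS35, SNX2, SNF8, CHMP4B and PDCD6IP, with ZFYVE26 (-0.32 ± 0.08) and ZFYVE16 (-0.30 ± 0.08) lowest. Each of the 11 lost its call without at least 1 of the 6 libraries. The count was 4 without 12 h replicate 2, 1 without 12 h replicate 3 and 2 without 24 h replicate 1. It was 6 without 24 h replicate 2, 5 without 24 h replicate 3 and 8 without 12 h replicate 1. In the same order, 5.79%, 4.69%, 4.49%, 8.17%, 7.07% and 9.55% of all genes tested were called.

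Among 59 other genes of the same pathway, 57 were tested. With methionase in DMSO 22 fell and 6 rose, 49.1% of the 57 against 39.2% of all genes tested. With Vps34-IN1 in vector cells 11 fell and 15 rose, 45.6% of the 57 against 40.1% of all genes tested. The lowest adjusted p with methionase belonged to ANKFY1 (-0.80 ± 0.07), a FYVE protein that binds RAB5, and TGFBRAP1 (-0.60 ± 0.06), a CORVET subunit, followed by the ESCRT-I subunit VPS37B (-0.63 ± 0.08), the WASH complex subunit WASHC5 (-0.46 ± 0.06), RAB35 (-0.56 ± 0.07) and the endosomal deubiquitinase USP8 (-0.52 ± 0.08). With Vps34-IN1 in vector cells they were ANKFY1 (-0.64 ± 0.07), the ESCRT-III gene CHMP1B (0.97 ± 0.13), the ESCRT deubiquitinase STAMBP (0.42 ± 0.06), the retromer adaptor SNX27 (0.35 ± 0.06), the RAB7 GTPase-activating protein TBC1D5 (0.45 ± 0.08) and RMC1 (0.38 ± 0.07). In methionase cells CHMP1B also rose with the drug, by 0.81 ± 0.13, and ANKFY1 had -0.09 ± 0.07 (not called).

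The balance between paralogues was set out within each library as the log2 ratio of their normalised reads, for 9 pairs chosen after the values had been seen. Reads are not divided by transcript length, so a ratio shows change between groups and not which RNA is more abundant. VPS4A over VPS4B averaged 3.77 ± 0.06 in methionase cells and 2.50 ± 0.11 in vector cells in DMSO at 24 h, and 3.70 ± 0.24 in vector cells with Vps34-IN1 (SD, n = 3 each). SNX1 over SNX2 averaged -1.05 ± 0.255 in methionase cells, -0.97 ± 0.06 in vector cells with Vps34-IN1 and -0.46 ± 0.10 in vector cells in DMSO. RAB5A over RAB5B averaged -0.56 ± 0.09 in methionase cells and -0.48 ± 0.06 in vector cells with Vps34-IN1, and lay between -1.09 and -0.88 in vector cells in DMSO. RAB5B over RAB5C differed by -0.09 with methionase and -0.03 with the drug, and MON1A over MON1B by 0.23 and 0.05. The libraries of these pairs overlapped in both settings. STAM over STAM2 overlapped with methionase (-0.25) and not with the drug (-0.39). RAB5A over RAB5C, CHMP2A over CHMP2B and CHMP4A over CHMP4B did not overlap in either setting. They differed by 0.36, 0.54 and 0.09 with methionase and by 0.49, 0.32 and 0.17 with the drug. Of the 9 pairs, 6 did not overlap with methionase and 7 with the drug. The share of other gene pairs without overlap was not computed, so this cannot be assigned to these pairs in particular. Both settings are compared with the same 3 vector libraries in DMSO. The smallest 2-sided p that an exact permutation test of 3 against 3 libraries can give is 0.1.

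**Figure D4:**
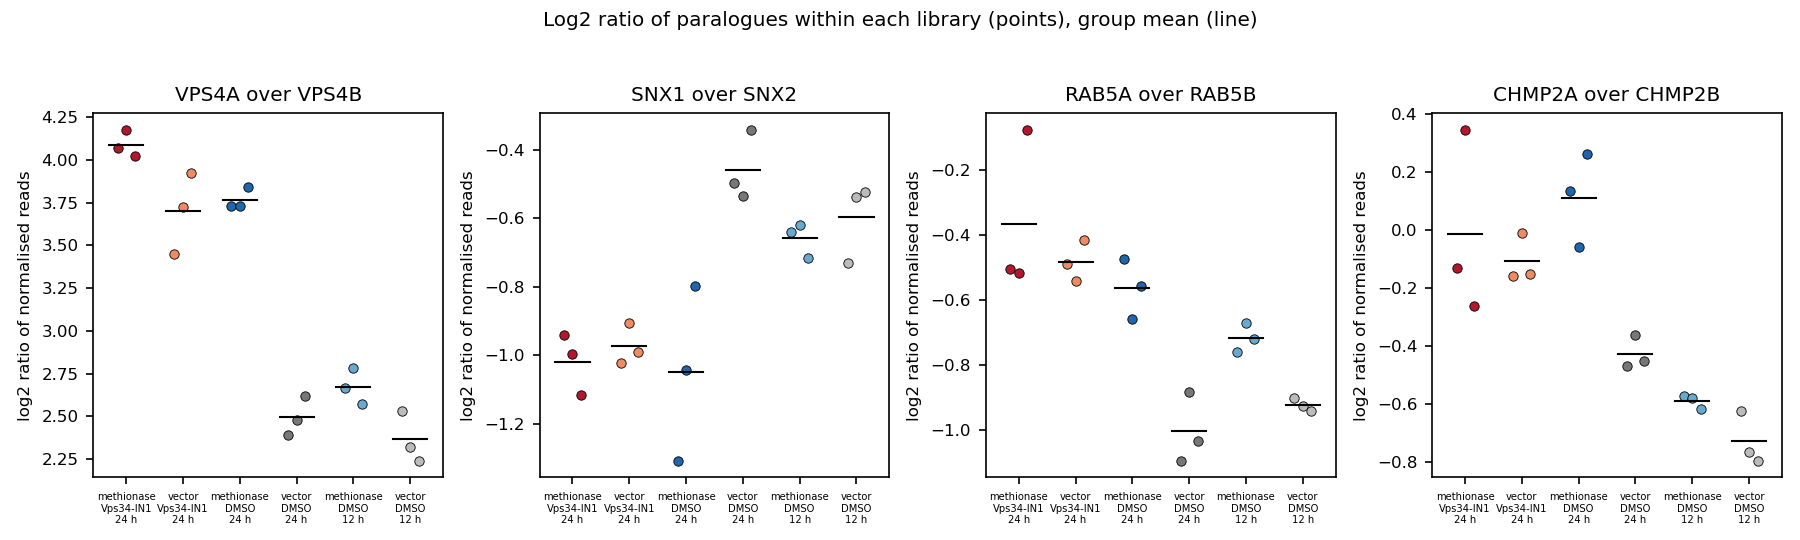
Log2 ratio of normalised reads of paralogues (y axis) in each library (points) by group (x axis), with a line at the group mean. For VPS4A over VPS4B, vector cells in DMSO average 2.50 at 24 h, below methionase cells in DMSO at 3.77 and vector cells with Vps34-IN1 at 3.70.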

How the data were processed

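The authors deposited 1 table of log2 values for 37096 named genes in 18 libraries. Per the submitters' processing notes the tools were STAR 2.7.10b, featureCounts, DESeq2 and limma with hg38, and per the labels' protocols the libraries were poly-A selected and made with a dUTP kit. The annotation and the strand setting of the counting are not given in the sources used here. The deposited log2 values are variance-stabilised, with a lowest value of 5.45. Undoing that transformation gave whole reads for 100% of values (tolerance 0.01), between 18278586 and 20825232 per library. The 1 line that names no gene was left out. limma 3.58.1 in R 4.3.3 was fitted to the deposited values of all 18 libraries, with 1 mean per group, a variance trend and empirical Bayes, on the 17755 genes with a mean at least 0.5 above the lowest value. Benjamini-Hochberg adjustment ran over all of them, with calls at an adjusted p under 0.05. The fit was tested on simulated data. Alternatives were other filters and scalings, no variance trend, only the groups compared, voom on the recovered reads, a replicate block and each library left out. The members and gene lists were chosen with earlier results of these data known. Values in every library are given for the called member with the lowest adjusted p per class and direction, for called interactions up to 10, and for RAB5A, RAB7A, EEA1, VPS35, HGS, TSG101, CHMP4B and VPS4B. Of 59 other genes of the pathway, at most 6 per comparison are named, by lowest adjusted p. Promoters came from RefSeq on GRCh38.p14.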

Additional observations from a re-analysis of the deposited data

Results flagged for a closer look

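The methionase difference under Vps34-IN1 differed from that in DMSO, by the interaction term in limma, for 12 genes. On the log2 scale the interaction was 0.79 for CHMP6, 0.61 for VPS4B, 0.48 for VPS18, 0.40 for VPS36, 0.33 for SNX1 and 0.26 for VPS33A. It was -0.72 for EEA1, -0.64 for RAB5A, -0.34 for RAB5B, -0.32 for VPS28, -0.30 for VPS37A and -0.28 for PDCD6IP. The calls of CHMP6, VPS4B, VPS36, SNX1, EEA1, RAB5A and RAB5B held under every setting tried.

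The methionase difference at 24 h differed from that at 12 h for 9 genes. The interaction was -0.88 for VPS18, -0.71 for VPS4B, -0.57 for CHMP6, -0.43 for STAM, -0.35 for TSG101, -0.30 for SNX1, -0.30 for VPS36, -0.29 for VPS33A and 0.30 for VPS28. The calls of VPS18, VPS4B, CHMP6 and TSG101 held under every setting tried.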

How the results depend on the processing

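No log2 difference of a called member changed sign under any alternative run. The count of members called with methionase at 12 h was 2 in the reported fit. It was 1 with no filter, with quantile normalization or with no variance trend. It was 5 with the stricter filter, with equal library medians or with voom, and 10 in a fit of only the groups compared. Over all genes tested, the reported fit called 2.17%. The other shares, in the order named, were 0.48%, 1.04%, 1.39%, 3.13%, 2.84%, 2.69% and 8.79%. The count with Vps34-IN1 in methionase cells, 4, was 0 in a fit of only the groups compared. That fit called 1.67% of all genes tested, against 7.93% in the reported fit. The count at 24 h against 12 h in vector cells, 11, was 6 with no filter or no variance trend, 5 with quantile normalization and 17 in a fit of only the groups compared. In the order named, 3.48%, 9.86%, 9.41% and 19.8% of all genes tested were called, against 11.5% in the reported fit. With 1 library left out the counts ranged from 0 to 3 for methionase at 12 h, 20 to 22 for methionase in DMSO at 24 h, 21 to 23 for methionase under the drug, 15 to 19 for the drug in vector cells, 2 to 5 for the drug in methionase cells, 22 to 24 for both, 10 to 16 for the interaction, 5 to 9 for the interaction with time and 1 to 8 for 24 h against 12 h. The shares of all genes tested with 1 library left out follow in the same order. They ranged from 0.101% to 1.34%, 32.1% to 36.4%, 32.3% to 38.3%, 33.6% to 36.5% and 4.84% to 8.59%. The last 4 ranges were 41.3% to 45.4%, 17.5% to 25%, 7.19% to 13.6% and 4.49% to 9.55%. The cause of these changes in the counts was not tested. Deviations of replicates with the same number had correlations from -0.31 to 0.35 (45 pairs, median 0.01, 13 over 0.1). Those with different numbers had correlations from -0.42 to 0.36 (90 pairs, median -0.01, 23 over 0.1), so the numbers were not read as pairs. Some libraries of different groups deviated together in both sets, and the cause was not tested. With the replicate block the counts were 2, 23, 23, 17, 3, 26, 12, 9 and 8 in the order of the ranges above. The shares of all genes tested were then 1.92%, 38.6%, 39.1%, 39.9%, 7.81%, 47.7%, 21.2%, 11.3% and 11.1%. Depth limits most the member with the fewest reads, CHMP3, whose group means lay between 103 and 143 normalised reads.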
